A study of Mus musculus with 4 samples.

Results

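Imprinted genes are expressed mainly from the copy inherited from the mother or from the copy inherited from the father. Most lie in domains that share a control element, often a germline differentially methylated region (DMR), which carries DNA methylation on the copy of 1 parent from the gamete onwards. Several of these elements act as the start of a long non-coding RNA or of a protein-coding gene on the unmethylated copy, and the zinc finger proteins ZFP57, CTCF and YY1 are known to bind some of them. The H19 and Igf2 domain is the best known case of CTCF binding at an imprinted element. The 50 imprinted genes described here lie outside it, in 18 domains. The genes are a fixed list of known imprinted genes, out of 32065 genes of the annotation. The list was drawn up with earlier results of these data known.

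The data were ATAC-seq peak lists, in which a transposase marks open chromatin, from day 4 embryoid bodies of the mouse embryonic stem cell line E14Tg2A. There were 2 libraries of wild type (WT) embryoid bodies and 2 of CTCF-K20R (K20R) embryoid bodies, whose CTCF carries arginine in place of lysine 20 after CRISPR/Cas9 editing. The stem cells of both genotypes had been grown on inactivated mouse embryo fibroblasts with 2i and leukemia inhibitory factor (LIF), and were differentiated in hanging drops in serum without LIF. The mutation was present in every cell from the stem cell state onwards, the edited cells were selected as clones, and the number of clones behind the 2 K20R libraries is not given in the sources used here. The study calls the libraries biological replicates. Peak lists do not separate the parental copies, so every value below is of both copies together.

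Each list gives for a peak its interval, its summit, the fold of the summit over local background and the −log10 p of the summit. The lists held 59783 and 66703 peaks in WT and 51823 and 55832 in K20R, and read depth is not part of them. Peaks that touched were merged into 80380 regions, and a region with a peak in all 4 lists is called common here. Near the imprinted genes, within 25 kb of an annotated start, lay 184 regions, of which 110 were common. WT libraries had a peak in 140 and 165 of the 184 and K20R libraries in 128 and 139, a difference of the means of -19 regions. Both WT numbers were above both K20R numbers, and the two-sided exact permutation test gave p = 0.333, the smallest that 2 against 2 libraries allow, so this test cannot reach 0.05. As a share of all regions of the same library, the regions near imprinted genes made up between 0.240% and 0.254%.

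The strength of a region is given in 2 ways. The percentile is the rank of its −log10 p among the 38527 common regions of the same library, from 0 for the weakest to 100 for the strongest. The log2 difference, K20R minus WT, is that of the −log10 p after quantile normalisation, tested by limma with Benjamini-Hochberg adjustment over all common regions and called at an adjusted p under 0.05. It is a difference in peak significance, not in read counts.

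Of the 110 common regions near imprinted genes, 11 were called lower in K20R and 11 higher. Among all common regions 8.65% were called lower and 7.41% higher, so the shares near imprinted genes were near the background. With WT replicate 1, WT replicate 2, K20R replicate 1 and K20R replicate 2 left out in turn, 5, 3, 5 and 6 were called lower and 9, 5, 2 and 7 higher. Among all common regions, too, fewer were called lower and fewer higher in each of these fits, so the drop was not particular to imprinted genes. The called regions were spread over 12 of the 18 domains. Those called higher included the starts of Plagl1, Mest and Peg13 and an internal start of Inpp5f. Those called lower included a region in Gnas, with percentiles of 82.9 and 75.3 in WT against 16.2 and 2.26 in K20R. Of the regions called lower, 0 had their summit in an exon, 8 were intronic and 3 intergenic, and among all common regions called lower 12.5% were exonic. Of the regions called higher, 6 were exonic, 4 intronic and 1 intergenic, where among all common regions called higher 23.1% were exonic. Among all common regions 25.4% were exonic, and among the 110 near imprinted genes 30.9%.

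**Figure D1:**
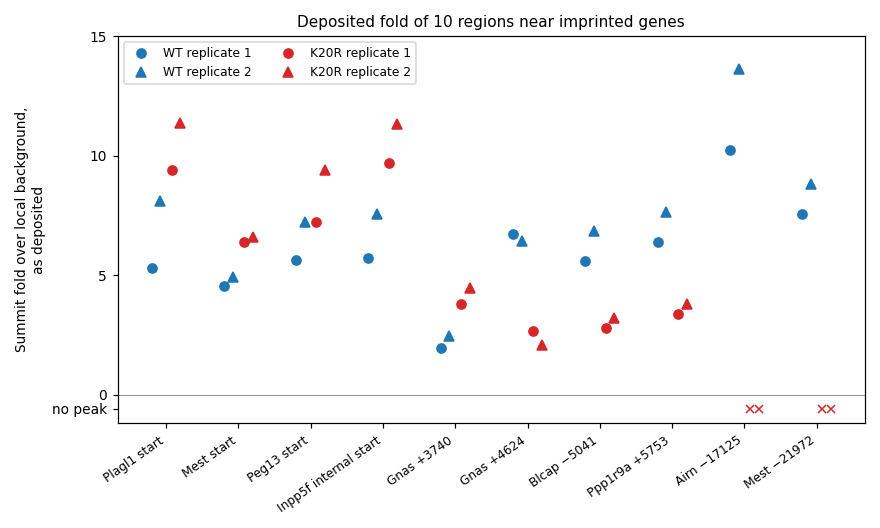
Fold of the summit over local background as deposited, on the vertical axis, for 10 regions near imprinted genes, with WT libraries in blue and K20R libraries in red (circle, replicate 1; triangle, replicate 2; cross, no deposited peak). At the Plagl1 start both K20R folds, 9.40 and 11.4, lie above both WT folds, 5.31 and 8.08, and at the Gnas region 4624 bp downstream of the outermost start the K20R folds, 2.67 and 2.06, lie below the WT folds, 6.74 and 6.42.

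Plagl1 encodes a zinc finger transcription factor and is expressed from the paternal copy, with the germline DMR at its start. The region at the start, chr10:13090237-13091653 in mm10, had percentiles of 28.3 and 32.3 for WT against 80.4 and 79.3 for K20R. Both K20R libraries were far above both WT libraries, and the replicates of each genotype lay close together. The log2 difference was 2.04 ± 0.27 (SE, n = 2 libraries per genotype; limma adjusted p = 1.91e-07), and the region was called with any 1 library left out. The other common region of Plagl1, 17376 bp downstream in an intron, had percentiles of 43.8 and 44.9 for WT against 47.6 and 63.2 for K20R and was not called (limma adjusted p = 0.373). The 35 common regions within 1 Mb of the gene had a median log2 difference of 0.25, with 6 called higher and 0 lower by limma.

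Mest encodes a protein of the hydrolase fold family and is also expressed from the paternal copy with its DMR at the start. The region at its main start, chr6:30736593-30739388, had percentiles of 51.3 and 43.1 for WT against 79.3 and 76.1 for K20R. The groups did not overlap, and the log2 difference was 1.28 ± 0.25 (limma adjusted p = 0.000183). Without K20R replicate 1 the call was lost (limma adjusted p = 0.0596), as it was when the deposited fold took the place of the −log10 p (limma adjusted p = 0.26). A region at an upstream start of Mest, chr6:30732716-30733775, went the other way, with percentiles of 24.9 and 29.8 for WT against 9.40 and 2.29 for K20R and a log2 difference of -1.28 ± 0.43 (limma adjusted p = 0.0352). This second call was lost with any 1 library left out.

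Peg13 is a paternally expressed non-coding RNA that lies in an intron of Trappc9, a gene of vesicle transport. The region at its start, chr15:72809174-72810804, had percentiles of 36.1 and 27.3 for WT against 62.6 and 64.9 for K20R. Both K20R libraries were above both WT libraries (log2 difference 1.27 ± 0.31, limma adjusted p = 0.0023). Without WT replicate 2 or without K20R replicate 1 the region was not called (largest limma adjusted p = 0.0836), and neither was it with the fold in place of the −log10 p (limma adjusted p = 0.263). The deposited folds, which are not normalised between libraries, overlapped at 5.62 and 7.23 for WT against 7.20 and 9.39 for K20R. The start of Trappc9 itself was among the strongest regions in every library, between 95.7 and 96.8, and was not called.

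Inpp5f encodes a phosphoinositide phosphatase, and a shorter paternally expressed transcript is known to start inside the gene at a DMR. The region at the internal start, chr7:128687720-128688568, had percentiles of 58.0 and 63.3 for WT against 82.0 and 79.8 for K20R (log2 difference 0.89 ± 0.22, limma adjusted p = 0.00333). The call was lost without K20R replicate 1 (limma adjusted p = 0.129). The main start of Inpp5f lay between 98.3 and 98.9 in the 4 libraries. A region 15385 bp upstream of the internal start, in an intron, was called lower, from 65.0 and 72.7 to 37.2 and 31.1 (log2 difference -1.39 ± 0.29, limma adjusted p = 0.000428), and this call was lost without WT replicate 2 (limma adjusted p = 0.0778) and on the fold. So 1 gene held a region called higher and a region called lower.

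The sequences of these 4 regions share copies of the hexamer TGCCGC, the core of the motif that ZFP57 is known to bind when methylated. They are shown with that hexamer, read on either strand, in capitals, each as 300 bases of mm10 on the plus strand. For Plagl1 the window is chr10:13090488-13090787, for Peg13 chr15:72809859-72810158 and for Inpp5f chr7:128688062-128688361. For Mest it is chr6:30737750-30738049, which lies beside the summit because annotated untranslated bases were left out.
Plagl1 start: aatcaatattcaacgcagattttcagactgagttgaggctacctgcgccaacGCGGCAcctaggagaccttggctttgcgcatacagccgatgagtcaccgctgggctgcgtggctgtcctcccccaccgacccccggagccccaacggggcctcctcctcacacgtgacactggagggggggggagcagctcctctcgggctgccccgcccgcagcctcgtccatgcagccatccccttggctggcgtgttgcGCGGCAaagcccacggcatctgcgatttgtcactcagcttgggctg
Peg13 start: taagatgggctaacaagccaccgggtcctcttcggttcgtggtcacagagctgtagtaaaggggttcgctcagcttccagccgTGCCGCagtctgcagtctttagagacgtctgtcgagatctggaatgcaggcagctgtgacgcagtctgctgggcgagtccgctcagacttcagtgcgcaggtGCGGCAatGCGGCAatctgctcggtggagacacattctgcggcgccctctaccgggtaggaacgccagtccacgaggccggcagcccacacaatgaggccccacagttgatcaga
Mest start: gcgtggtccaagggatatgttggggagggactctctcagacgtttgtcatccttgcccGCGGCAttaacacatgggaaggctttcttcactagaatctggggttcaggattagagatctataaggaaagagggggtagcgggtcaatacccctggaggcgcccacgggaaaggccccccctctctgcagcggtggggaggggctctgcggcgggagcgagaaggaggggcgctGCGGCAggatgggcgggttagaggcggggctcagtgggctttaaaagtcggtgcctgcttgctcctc
Inpp5f internal start: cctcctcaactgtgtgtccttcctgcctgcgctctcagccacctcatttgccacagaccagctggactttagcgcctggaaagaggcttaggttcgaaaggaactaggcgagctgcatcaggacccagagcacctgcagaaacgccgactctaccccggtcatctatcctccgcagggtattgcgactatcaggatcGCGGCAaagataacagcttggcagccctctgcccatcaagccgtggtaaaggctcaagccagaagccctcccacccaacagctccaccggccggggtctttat

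The Plagl1 window held 21 CpG and 2 copies of the hexamer, the Peg13 window 21 CpG and 3 copies, the Mest window 16 CpG and 2 copies and the Inpp5f window 14 CpG and 1 copy. Over the whole regions, the hexamer occurred 6 times at Plagl1, 5 times at Peg13, 12 times at Mest and 6 times at the internal start of Inpp5f. It also occurred at other DMR starts, not called, with 10 matches at Snrpn, 8 at the Peg3 and Usp29 start, 6 at Nnat and 5 at Impact. Kcnq1ot1, Airn and the start shared by Peg10 and Sgce had 3 each, and Zrsr1 had 0. The regions differed in length, with 849 bases at the internal start of Inpp5f and 2796 at Mest. No share over all regions is given for these whole-region counts. A match is a description of the letters and says nothing of binding.

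In the 300 bases round the strongest summit, TGCCGC occurred on either strand in 7 of the 11 regions called higher, in 1 of the 11 called lower and in 19 of the 88 common regions near imprinted genes that were not called. Among all common regions it occurred in 13.4% of those called higher, in 8.37% of those called lower and in 14.9% of all. The regions called higher near imprinted genes were also richer in CpG, with a median of 19 per window against 3 in those called lower and 12 in those not called. Over all common regions the medians were 8, 4 and 10. Hexamer and CpG content moved together here, and the part of either in the result was not tested.

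The CTCF motif was searched as CCA, any 2 bases, AG, any 2 bases and GGC on both strands in the same windows. It occurred in 25 of the 184 regions near imprinted genes (13.6%, Wilson 95% interval 9.38 to 19.3) and in 12.3% of all regions. It occurred in 1 of the 11 regions called lower and 1 of the 11 called higher, against 16 of the 88 not called. Among all common regions it was in 6.27% of those called lower, 10.0% of those called higher and 14.3% of those not called. The region called higher that held it was the one in an intron of Slc22a18, 5636 bp downstream of a start, and the one called lower was 23702 bp upstream of Impact. The YY1 motif, searched as AA, any base and ATGGCG on both strands, was in 5 of the 184 windows (2.72%, against 1.21% of all regions), none of them called.

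The Slc22a18 window, chr7:143480588-143480887, is shown because it held both the CTCF motif and the hexamer, in capitals. The Peg3 window, chr7:6728365-6728664, is the stretch of the Peg3 and Usp29 start region richest in the YY1 motif. In that window the capitals mark 2 copies of the YY1 motif and 1 of the hexamer. The Gnas window, chr2:174288795-174289094, holds none of the 3 motifs and 3 CpG, and is shown because the largest fall was there. All 3 are 300 bases on the plus strand of mm10.
Slc22a18 intron: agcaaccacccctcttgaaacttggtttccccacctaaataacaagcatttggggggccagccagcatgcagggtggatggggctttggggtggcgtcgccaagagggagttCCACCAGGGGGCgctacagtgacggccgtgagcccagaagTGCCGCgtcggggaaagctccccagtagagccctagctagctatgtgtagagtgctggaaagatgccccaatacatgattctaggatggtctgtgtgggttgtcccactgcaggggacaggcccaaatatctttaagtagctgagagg
Peg3 intron: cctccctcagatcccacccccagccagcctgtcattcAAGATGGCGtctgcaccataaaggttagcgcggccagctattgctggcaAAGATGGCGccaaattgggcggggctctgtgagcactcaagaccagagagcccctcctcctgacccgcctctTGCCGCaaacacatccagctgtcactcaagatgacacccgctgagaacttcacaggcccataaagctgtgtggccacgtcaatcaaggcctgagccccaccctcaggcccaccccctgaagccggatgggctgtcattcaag
Gnas intron: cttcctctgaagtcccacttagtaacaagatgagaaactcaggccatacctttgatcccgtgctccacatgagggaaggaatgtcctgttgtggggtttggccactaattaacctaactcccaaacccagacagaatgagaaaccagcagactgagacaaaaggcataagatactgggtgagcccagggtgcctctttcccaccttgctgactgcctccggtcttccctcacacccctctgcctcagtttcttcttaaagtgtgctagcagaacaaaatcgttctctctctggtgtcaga

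Gnas encodes the stimulatory G protein alpha subunit and is a complex of several starts, of which Nesp is maternal and Gnasxl and the antisense RNA Nespas are paternal. Within 25 kb of its starts lay 13 regions, 8 of them common, and 3 neighbouring ones were called, in both directions. The region 4624 bp downstream of the outermost start, chr2:174288500-174289466, lies in introns of Gnas and Nespas. Its percentiles were 82.9 and 75.3 for WT against 16.2 and 2.26 for K20R, with no overlap (log2 difference -3.20 ± 0.35, limma adjusted p = 2.05e-09). The region next to it, 3740 bp downstream, had 2.15 and 8.27 for WT against 42.0 and 45.2 for K20R (log2 difference 1.98 ± 0.41, limma adjusted p = 0.000389). Both calls held with any 1 library left out.

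A further Gnas region in an exon, 907 bp downstream of the outermost start, rose from 24.9 and 16.1 to 48.7 and 59.8 (log2 difference 1.37 ± 0.35, limma adjusted p = 0.00422), but was called in 1 of the 4 fits that leave out a library. The strongest Gnas start region had percentiles of 72.8 and 70.5 for WT against 69.9 and 60.0 for K20R and was not called (log2 difference -0.29, limma adjusted p = 0.47). The other 4 common regions had log2 differences between -0.95 and 0.54 and were not called. The 37 common regions within 1 Mb had a median log2 difference of -0.20, with 6 called lower and 1 higher by limma.

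**Figure D2:**
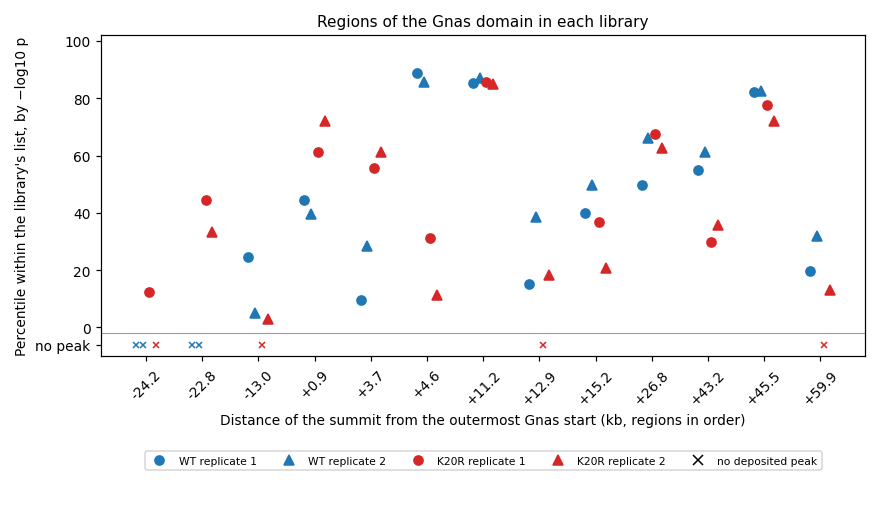
Percentile of each region of the Gnas domain within its library's own list (vertical axis) in the order of the distance of its summit from the outermost Gnas start in kb (horizontal axis), with WT in blue and K20R in red and a cross where a list has no peak. At +0.9 and +3.7 kb both K20R libraries lie above both WT libraries, and at +4.6 kb the WT libraries stand at 88.9 and 85.5 and the K20R libraries at 31.1 and 11.3.

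A start region was found for 35 of the 50 genes as a common region with its summit within 1 kb of a start. For a gene with several such regions only the strongest was counted, so that the upstream start of Mest, the internal start of Inpp5f and the Gnas region 907 bp downstream do not enter the counts that follow. The strongest start region was called higher in K20R by limma for 3 of the 35 (Mest, Plagl1 and Peg13) and lower for 0, where over 16601 genes with such a region 5.36% were called higher and 3.82% lower. At an unadjusted p under 0.05 there were 6 higher and 0 lower of the 35, against 11.3% higher and 7.69% lower of the 16601 genes. Percentiles lay without overlap above WT in 12 genes and below WT in 4, against 28.1% and 19.8% of all genes with such a region. With 1 library left out, 1 percentile of a genotype stands against 2 of the other, and lack of overlap is easier to reach in either direction. Counts from such settings are therefore not comparable with these. The median log2 difference was 0.10 for the 35 genes and 0.04 for all genes.

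Slc22a18, Asb4 and Meg3 had a start region in some of the lists only, and Tspan32, Peg3, Usp29, Peg10, Sgce, Rtl1, Rian, Mirg, Ndn, Slc22a2, Impact and Kcnk9 had no summit within 1 kb of a start. For several of these the start was covered by a broad region whose strongest summit lay further off. By the interval in place of the summit, an alternative chosen after seeing the data, 42 genes had a common start region. Slc22a2, an organic cation transporter of the Igf2r domain, had no region within 25 kb in any list.

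**Figure D3:**
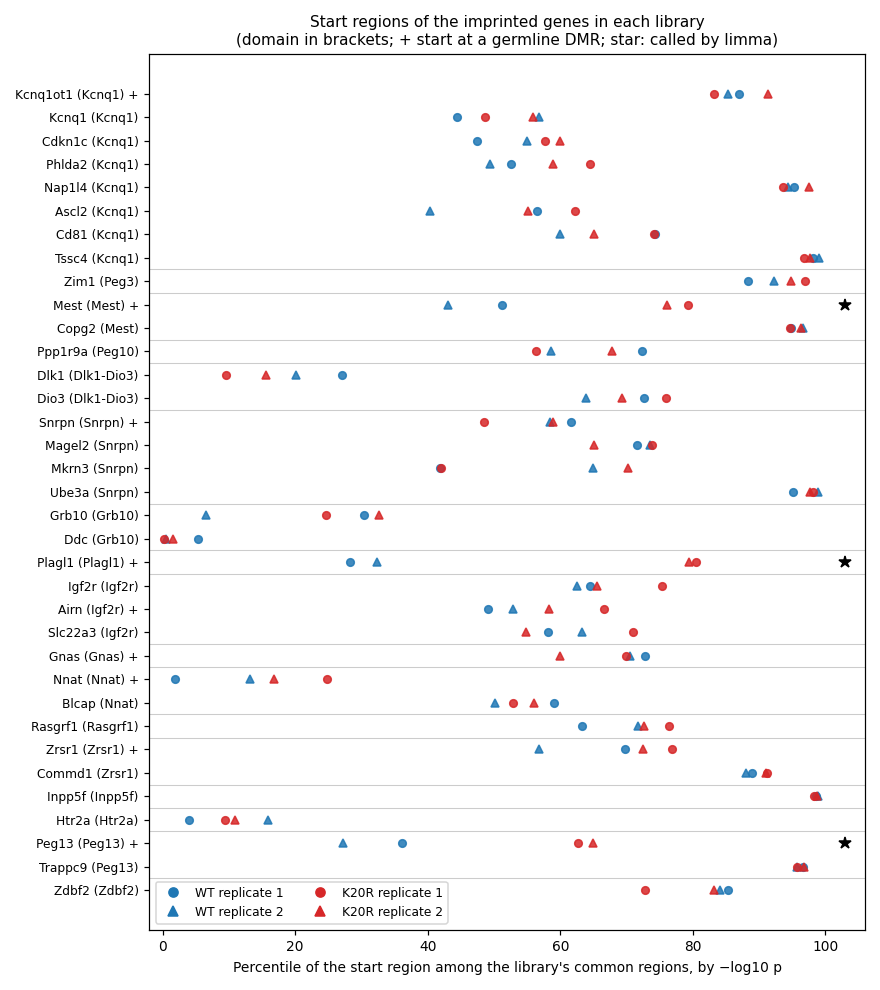
Percentile of the start region among the common regions of each library (horizontal axis) for the 35 genes that had one, grouped by domain, with WT in blue and K20R in red. Only the strongest start region of a gene is drawn. A star marks the 3 of these called by limma, Mest, Plagl1 and Peg13, and a plus sign marks genes that start at a germline DMR.

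Of the 14 genes that start at a germline DMR, 9 had a common start region, with a median log2 difference of 0.49. The other 5, Peg3, Usp29, Peg10, Sgce and Impact, had no summit within 1 kb and are not counted. By the interval they had common start regions, which overlapped between the genotypes and were not called. K20R lay above WT without overlap in 6 of the 9, below in 1, and 3 were called higher. Over all genes with a common start region these shares were 28.1%, 19.8% and 5.36%. The 1 below was Gnas, by the strongest of its several start regions. Whether that region lies at the DMR is not given in the sources used here. The start region of Nespas, in the same complex, had 77.5 and 77.9 for WT against 80.8 and 78.4 for K20R. Of the 36 other genes, 26 had a common start region, with a median log2 difference of 0.09, 6 above, 3 below and 0 called. Inpp5f is among these 26 by its main start, and its internal start, at a DMR and called higher, is not counted in either group. Grb10 is among them by a region 490 bp upstream of a start. Its region 2016 bp downstream of a start, called higher, is not counted either. The DMR label was given to whole genes from general knowledge, so a DMR elsewhere in the other 36 genes is not covered. The difference between these groups of genes was not tested. Split by the expressed copy, 16 paternally expressed genes had a common start region with a median of 0.15 and 3 called higher, and 17 maternally expressed genes had one with a median of 0.09 and 0 called. Plagl1, Mest and Peg13 are the 3 behind both counts.

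Kcnq1ot1, the paternal antisense RNA of the Kcnq1 domain, had start percentiles of 86.9 and 85.3 for WT against 83.2 and 91.3 for K20R, which overlap. Snrpn, of the Prader-Willi and Angelman domain, had 61.6 and 58.5 for WT against 48.5 and 58.9 for K20R, also overlapping. Airn, the antisense RNA that silences Igf2r, had 49.1 and 52.8 for WT against 66.5 and 58.2 for K20R. The K20R values of Airn lay above, but the region was not called (log2 difference 0.46, limma adjusted p = 0.287).

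Nnat, a small membrane protein gene inside Blcap, was weak in every library, at 1.82 and 13.2 for WT against 24.8 and 16.8 for K20R, and was not called (log2 difference 0.92, limma adjusted p = 0.171). Zrsr1, a retrogene for a splicing factor inside Commd1, had 69.8 and 56.9 for WT against 76.9 and 72.5 for K20R and was not called (log2 difference 0.49, limma adjusted p = 0.163). In both genes K20R lay above WT without overlap.

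The starts of Peg3 and Usp29, a zinc finger gene and a ubiquitin protease gene that face away from each other, were covered by 1 region of 3541 bp, chr7:6727319-6730859, with its summit 1928 bp downstream of the Peg3 start. It held 9 matches of the YY1 motif, and its percentiles were 88.1 and 87.9 for WT against 95.6 and 87.4 for K20R. Peg10 and Sgce, a retrotransposon-derived gene and the epsilon-sarcoglycan gene, shared a region with percentiles of 80.0 and 91.8 for WT against 89.2 and 88.9 for K20R. The region over the start of Impact, a translation regulator, had 88.1 and 86.2 for WT against 88.8 and 80.4 for K20R. All 3 regions were strong in every library, their groups overlapped, and none was called.

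Among the genes that do not start at a germline DMR, K20R lay above WT without overlap in Cdkn1c, Phlda2, Zim1, Igf2r, Rasgrf1 and Commd1, and below in Dlk1, Tssc4 and Zdbf2. Cdkn1c, a cyclin-dependent kinase inhibitor, had 47.4 and 55.0 for WT against 57.7 and 59.9 for K20R. Phlda2, a gene known for limiting placental growth, had 52.5 and 49.4 for WT against 64.5 and 58.9 for K20R. None of these 9 genes was called, and the lowest limma adjusted p among them was 0.0785, for Zim1.

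Zim1, a zinc finger gene, had 88.3 and 92.2 for WT against 96.9 and 94.8 for K20R. Igf2r, the receptor that clears IGF2, had 64.5 and 62.5 for WT against 75.4 and 65.6 for K20R. Rasgrf1, a Ras exchange factor, had 63.2 and 71.8 for WT against 76.4 and 72.6 for K20R. Commd1, a copper metabolism gene, had 89.0 and 88.0 for WT against 91.2 and 91.1 for K20R, so the gap between genotypes was small in each of these.

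Dlk1, a transmembrane relative of the Notch ligands, had a weak start, at 27.0 and 20.1 for WT against 9.58 and 15.6 for K20R (log2 difference -0.56, limma adjusted p = 0.416). Tssc4 had 98.1 and 99.0 for WT against 96.8 and 97.7 for K20R. Zdbf2 had 85.3 and 84.1 for WT against 72.8 and 83.3 for K20R. With Gnas, these 3 made up the 4 genes below WT. The other 19 genes with a common start region had percentiles that overlapped between the genotypes.

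Away from the starts, 2 further regions were called lower with any 1 library left out. The region 5041 bp upstream of Blcap, chr2:157571087-157571936, fell from 57.9 and 56.2 (WT) to 9.35 and 7.37 (K20R) (log2 difference -2.17 ± 0.37, limma adjusted p = 2.31e-05). It spans position 157571274, where Blcap transcripts outside the basic annotation start. The region 5753 bp downstream of the start of Ppp1r9a, which encodes the actin-binding protein neurabin, lies in an intron at chr6:4909762-4911284. It fell from 50.9 and 54.6 to 9.42 and 7.60 (log2 difference -1.99 ± 0.38, limma adjusted p = 0.000117). The starts of both genes overlapped between the genotypes.

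The remaining regions called lower near these genes lay in the domains of Peg10 (13733 bp into Sgce, log2 difference -1.42), Dlk1 (6872 bp upstream, -1.28), Grb10 (4342 and 12391 bp into Ddc, -1.29 and -1.06), Zrsr1 (14961 bp upstream, -0.99) and Impact (23702 bp upstream, -0.67). Their limma adjusted p-values lay between 0.0052 and 0.0395. At Sgce the percentiles were 53.4 and 24.9 for WT against 2.58 and 19.9 for K20R. The regions of Dlk1 and Sgce were each called in 1 of the 4 fits that leave out a library, and those of Ddc, Zrsr1 and Impact in 0.

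The regions called higher away from starts included the Slc22a18 region with the CTCF motif, which rose from 17.7 and 17.9 to 53.3 and 56.5 (log2 difference 1.52 ± 0.35, limma adjusted p = 0.00143) and lost the call without K20R replicate 1 (limma adjusted p = 0.0636). Slc22a18 encodes a transporter of the maternally expressed group of the Kcnq1 domain. Rian, a maternal non-coding RNA that hosts small nucleolar RNAs, held a region 7321 bp upstream of an internal start that rose from 6.64 and 15.2 to 39.1 and 42.0 (log2 difference 1.37 ± 0.40, limma adjusted p = 0.0119). In Grb10, a growth-limiting adaptor, a region 2016 bp downstream of a start rose from 74.4 and 74.4 to 89.8 and 84.0 (log2 difference 0.61 ± 0.20, limma adjusted p = 0.0242). By the interval in place of the summit, this region was the strongest start region of Grb10. Of the calls at Rian and Grb10, 0 and 1 held in the 4 fits that leave out a library.

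Impact had 2 further regions called higher, 2560 bp downstream (61.3 and 52.4 to 74.6 and 76.9, log2 difference 0.81) and 24820 bp upstream (18.2 and 1.24 to 35.4 and 25.3, log2 difference 1.25). Their limma adjusted p-values were 0.0149 and 0.0463, and each was called in 1 of the 4 fits that leave out a library. The latter lies 1118 bp from the region called lower upstream of Impact, as measured between summits. As at Gnas, neighbouring regions there moved in opposite directions.

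**Figure D4:**
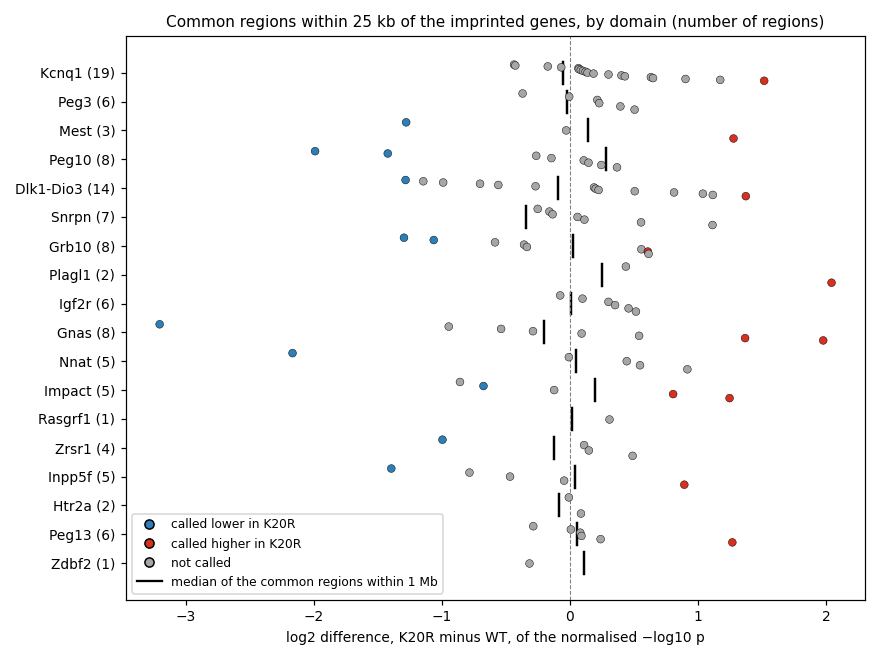
Log2 difference, K20R minus WT, of the normalised −log10 p (horizontal axis) of each of the 110 common regions near imprinted genes, by domain, with regions called lower in blue, called higher in red and others in grey. The black bars give the median of the common regions within 1 Mb of the domain. Plagl1 at 2.04 and Gnas at -3.20 are the extremes.

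By domain, the median log2 difference of the common regions lay between -0.47 for Inpp5f and 1.24 for Plagl1, the latter over only 2 regions. The medians of the common regions within 1 Mb and outside the 25 kb windows lay between -0.34 and 0.28. In the Kcnq1 domain, the largest with 10 genes, the median was 0.14 over 19 regions against -0.05 over 60 regions around it, with 1 region called higher and 0 lower. In Grb10 it was -0.35 over 8 against 0.03 over 24. The Snrpn, Rasgrf1, Htr2a and Zdbf2 domains held neither a called region nor a region restricted to a genotype.

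A region is called restricted here if both libraries of a genotype had a peak and both libraries of the other had none. Near imprinted genes 15 of 184 regions were restricted to WT and 2 to K20R, where over all regions 10.4% were restricted to WT and 3.10% to K20R. The shares near imprinted genes were thus near or below the background. With 1 library left out, a region needs a peak in fewer lists, and the number restricted to WT was 32 without WT replicate 1 and 24 without K20R replicate 2. The number restricted to K20R was 8 without WT replicate 2, 10 without K20R replicate 1 and 8 without K20R replicate 2. No share over all regions is given here for these settings.

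The strongest region restricted to WT lay in an intron of Igf2r, 17125 bp upstream of the Airn start, at chr17:12723901-12724692. It stood at the 81.8 and 84.2 percentiles of the 2 WT lists, with folds of 10.3 and 13.6. The numbers of the neighbouring K20R peaks leave room for up to 6 removed peaks, so its absence from the K20R lists does not show that no peak was called there. Elsewhere in the domain a region in an intron of Airn, 21308 bp upstream of Igf2r, stood at 41.2 and 41.1 in WT, and there no peak number was missing in K20R.

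Upstream of Mest lay 3 regions restricted to WT, none with a missing peak number in the K20R lists. The region 21972 bp upstream, chr6:30710831-30711899, stood at 75.1 and 75.0 in the 2 WT lists. The region 10927 bp upstream, chr6:30722091-30722941, stood at 58.9 and 67.0 and ends just before position 30723547, where Mest transcripts outside the basic annotation start. The one 24090 bp upstream stood at 40.3 and 38.9. The start of Mest, described above, was higher in K20R, so this gene had regions that differed in both directions.

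Tspan32, a tetraspanin gene of the Kcnq1 domain, had 3 regions restricted to WT, of which the strongest, 10534 bp downstream in an intron, stood at 50.2 and 41.2. The other restricted regions near Tspan32 stood at 34.7 and 17.5 and at 2.34 and 10.5. Usp29 had a region at 46.9 and 49.2, and Slc22a18 a weak one at 4.00 and 18.6. Near Grb10 and Ddc there were 3, at 51.4 and 34.0, and a pair each at 30.6 and 24.1. Meg3, a maternal non-coding RNA, had one at 23.0 and 12.2, and the one of Rian at 23.3 and 38.5 was also within 25 kb of Rtl1, a retrotransposon-derived gene.

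The K20R-restricted regions were 1000 bp downstream of a start of Asb4, at 30.4 and 24.0, and 22776 bp upstream of Gnas, at 44.4 and 33.2. Asb4 encodes a subunit of ubiquitin ligases. Peak numbers were missing at both places in the WT lists. Of the 15 regions restricted to WT, 9 had no missing number in either K20R list. None of the 17 restricted regions held the CTCF motif or TGCCGC in its window, where over all regions restricted to WT 6.46% held the CTCF motif and 3.97% the hexamer.

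**Figure D5:**
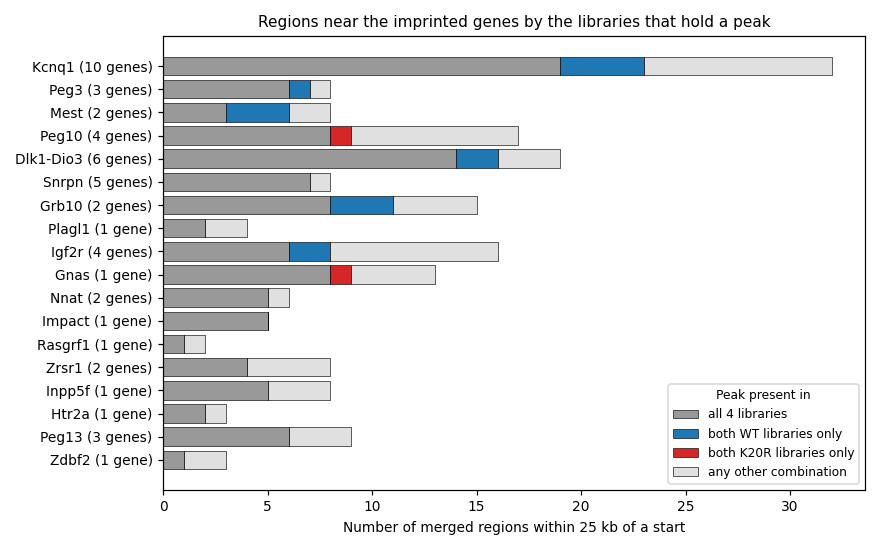
Number of merged regions within 25 kb of a start (horizontal axis) in each of the 18 domains, split by the libraries that hold a peak. Regions found in both WT libraries only lie in 6 domains, with 4 in Kcnq1 and 3 each in Mest and Grb10, and those found in both K20R libraries only are 1 in Peg10 and 1 in Gnas.

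Other imprinted genes, on a list of 28 of which 27 were in the annotation, had a common start region in 23 cases, with a median log2 difference of 0.17. Of these, 1 was called higher by limma and 0 lower. It was Nap1l5, a retrogene for a nucleosome assembly protein, which rose from 22.3 and 16.5 to 66.8 and 65.7 (log2 difference 1.91 ± 0.33, limma adjusted p = 2.04e-05). Among 20 genes for factors that keep imprints, 18 had a common start region, 1 was called higher and 0 lower. Over all genes with a common start region 5.36% were called higher and 3.82% lower, so the counts higher in both lists were near the background. The start of Dnmt3l, the cofactor of de novo DNA methylation, rose from 8.75 and 5.36 to 36.7 and 46.9 (log2 difference 1.70 ± 0.41, limma adjusted p = 0.00198). The start of Zfp57 itself had 78.0 and 78.9 for WT against 75.9 and 70.9 for K20R and was not called (log2 difference -0.23, limma adjusted p = 0.515).

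Starts of some marker genes of the cell types in embryoid bodies also differed. Over all genes with a common start region, 5.36% were called higher and 3.82% lower. Of 5 genes of pluripotent cells, Pou5f1 and Zfp42 were called higher by limma (log2 differences 0.68 and 0.67) and 0 lower. Sox2 (0.58), Nanog (-0.27) and Dnmt3b (-0.28) were not called. The K20R percentiles lay above WT without overlap in 3 of the 5 and below in 1, Dnmt3b. Of 4 endoderm genes, Foxa2 and Gata6 were called lower (-1.22 and -1.26), Sox17 was not called, and Afp had no start region. Of 6 primitive streak and mesoderm genes, T was called lower and Mesp1 higher (-0.80 and 1.47), and of 3 neuroectoderm genes 0 were called. Of 6 fibroblast genes, as a measure of feeder cells, Col3a1, Postn and Lum had no start region, Thy1 was called lower (-0.59), and Col1a1 and Col1a2 were not called. The part of cell composition in the differences at imprinted genes was not tested, and in bulk libraries more cells with an open region and a more open region per cell cannot be told apart.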

How the data were processed

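ATAC-seq was made from 2 WT and 2 CTCF-K20R libraries of day 4 embryoid bodies. According to the methods of the study, reads were trimmed with Trim_Galore and placed on mm10 with bowtie2, reads of low mapping quality, duplicates and blacklisted reads were removed, and MACS2 called peaks, 1 deposited list per library. The authors' score is the deposited −log10 p of the summit times 10. The deposited ratio is the fold of the summit over local background, and the deposited −log10 p and the authors' −log10 q refer to that summit too. The authors' summit offset (unit: other) gives the summit position in bp from the peak start. Reads were not used here, so depth is unknown, no count test was possible, and precision rests on 2 libraries per genotype. Peak numbers have gaps (50.5% to 60.8% of the numbers are present), so called peaks had been removed by a rule not given in the sources used here.

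Here peaks sharing at least 1 bp were merged into regions. Starts were those of GENCODE vM21 basic transcripts (same build), and sequence was RefSeq GRCm38.p6. All starts of a gene were used, a start region having its strongest summit within 1 kb. The log2 −log10 p of common regions was quantile-normalised and tested with limma 3.58.1 (R 4.3.3, trended empirical Bayes, Benjamini-Hochberg over all 38527 common regions). The script was tested on simulated data. Libraries served as replicates. The SE and p-values of limma rest on the spread between libraries at a region, drawn towards a trend over all 38527 common regions. They measure no spread other than that between libraries. The 50 genes, the lists, the motifs and the tests were chosen with earlier results of these data known. Every gene was accounted for, and values of every library are given for genes that start at a germline DMR (from general knowledge), for those whose start percentiles did not overlap or whose start was called, and for those with a restricted region. The labels give no batch. Alternatives were leaving out each library, stricter peaks, equal list lengths, another merge, other windows and starts, the fold as measure, median centring, a replicate block and a shorter sequence window.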

Additional observations from a re-analysis of the deposited data

How the results depend on the processing

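All 22 called regions near imprinted genes kept their direction in every alternative in which they could be fitted. With a library left out, between 7 and 13 of the 22 were still called, and the 5 called in each of those fits were the Plagl1 start, the Gnas regions 3740 and 4624 bp downstream, and the regions at Blcap and Ppp1r9a. With the fold in place of the −log10 p, 10 of the 22 were still called, with 7 regions lower and 5 higher in all, and start percentiles lay below WT in 2 genes and above in 7. With peaks of a −log10 q of at least 5 only, 6 regions were lower, 1 was restricted to K20R, and 13 of the 22 could be fitted, all called. Over all common regions, 1400 of 38527 were called lower and 954 higher on the fold, and 2220 and 1925 of 29192 with the stricter peaks. With lists of equal length 4 regions were restricted to K20R. Within 10 kb, 6 regions were lower, 7 restricted to WT and 1 to K20R, as fewer regions lie there. Leaving out each library gave 3 to 6 regions lower, 2 to 9 higher, 17 to 32 restricted to WT, 3 to 10 restricted to K20R, and 6 to 12 genes below and 15 to 18 above WT at the start. With 1 library left out, 1 value of a genotype stands against 2 of the other. Lack of overlap is then easier to reach in any gene, and a restricted region needs a peak in fewer lists. Other causes were not tested. By the labels, same-numbered libraries share only a number. After quantile normalisation, the differences between replicates had a correlation of 0.04 over regions between the genotypes. That correlation does not cover traits of whole libraries. The median deposited fold of the common regions was 5.86 (WT) and 5.73 (K20R) in replicate 1, against 7.74 and 7.59 in replicate 2. The fit with a replicate block gave 13 regions lower and 15 higher near imprinted genes, and 3675 and 3264 over all common regions against 3333 and 2853 without it.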
